A study of Mus musculus with 6 samples.

Results

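Of the 21959 genes in the deposited table, 8 are described here: the chemokines Ccl2, Ccl7, Cxcl1, Cxcl5, Cxcl12 and Cx3cl1, the macrophage growth factor Csf1 and the cytokine Tslp. They were picked by name, with their difference between the groups already known, so that difference is given as a description, no p-value of it is printed, and counts of members past a threshold support nothing. The 6 libraries were made from cells labelled HL-1, a line derived from mouse atrial cardiomyocytes, with a wild-type genotype and 1 batch label. For 3 of them the cells were kept in phillyrin at 50 µg/mL, a plant lignan, for 8 h beforehand and then for 16 h during oxygen-glucose deprivation with reoxygenation (OGD/R). For the other 3 they underwent OGD/R alone. OGD/R mimics ischemia followed by reperfusion in a dish, and is described in the labels as 4 h of hypoxia without glucose and 24 h of reoxygenation, with no statement of how the 16 h fit into these. Cells without OGD/R and cells given a vehicle were not analysed here. The comparison therefore asks what differs when phillyrin is added to OGD/R, and the solvent cannot be told apart from phillyrin.

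Chemokines are small secreted proteins that draw leukocytes along a gradient and are sorted into families by the spacing of their first cysteines. CCL2 and CCL7 attract monocytes, CXCL1 and CXCL5 attract neutrophils, CXCL12 guides progenitor cells and lymphocytes, and CX3CL1 is made as a membrane-anchored protein that proteases can shed. CSF1 keeps monocytes and macrophages alive, and TSLP acts on dendritic cells and other immune cells. In injured heart muscle, CCL2 and the CXCR2 ligands are known for bringing in monocytes and neutrophils. Messenger RNA levels of these ligands say nothing of the amount secreted.

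Library totals lay between 14761317 and 22123648 counts, and the shallowest was phillyrin replicate 3. For a transcript without a count in all 6 libraries, the limit that 3 counts set is 0.0269 CPM (the count scaled by library size), which covers counting error only. The atrial label was checked against 16 cardiac markers, of which 4, among them Myh6 and Actn2, had no count and 11 stayed below 0.5 CPM in every library. The 16 still summed to 857 to 907 CPM with phillyrin and 818 to 836 CPM with OGD/R alone, carried by the 5 that were tested. The skeletal muscle determination factor Myod1 was at 92.9, 101 and 97.8 CPM with phillyrin, against 83.3, 85.3 and 80.9 CPM with OGD/R alone. It is 1 of 10 skeletal muscle markers, of which 0 lacked counts in all libraries, 2 stayed below 0.5 CPM in every library and 7 were tested. These 10 summed to 517 to 549 CPM with phillyrin and 580 to 596 CPM with OGD/R alone. Sums over lists of different genes do not rank a cardiac against a skeletal identity. Cells are therefore called by their label only. Most leukocyte markers were not detected: Adgre1, Itgam, S100a8, Laptm5 and Tyrobp had 0 counts in all libraries, as did 7 of 16 monocyte, macrophage and neutrophil markers and 8 of 9 lymphocyte and mast cell markers.

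Of the 8 genes, 6 had lower levels with phillyrin and 2 had groups that overlapped. Ccl2 stood at 37.1% of its OGD/R level, Cxcl5 at 41.1%, Tslp at 42.6%, Ccl7 at 56.5%, Cxcl1 at 75.3% and Csf1 at 84.9%, while Cx3cl1 stood at 103% and Cxcl12 at 109.9%. All 8 passed the filter on low counts. As a description, 6 of the 8 were among the genes that edgeR called lower (adjusted p under 0.05 over 11658 genes), beside a background of 31.7% of all tested genes called, 15.6% lower and 16.0% higher. TMM scaling gave 1871 genes called higher and 1823 lower, and scaling by library size only gave 1313 higher and 2455 lower. The same 6 had groups that did not overlap, with phillyrin lower, which held for 21.6% of all tested genes, and 43.1% were separate in either direction. The median log2 fold change of the 8 was -0.62, and that of all tested genes was -0.01. These counts repeat what the choice of genes was based on. In cultures sequenced in bulk, fewer cells making a transcript and less of it per cell cannot be told apart.

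**Figure D1:**
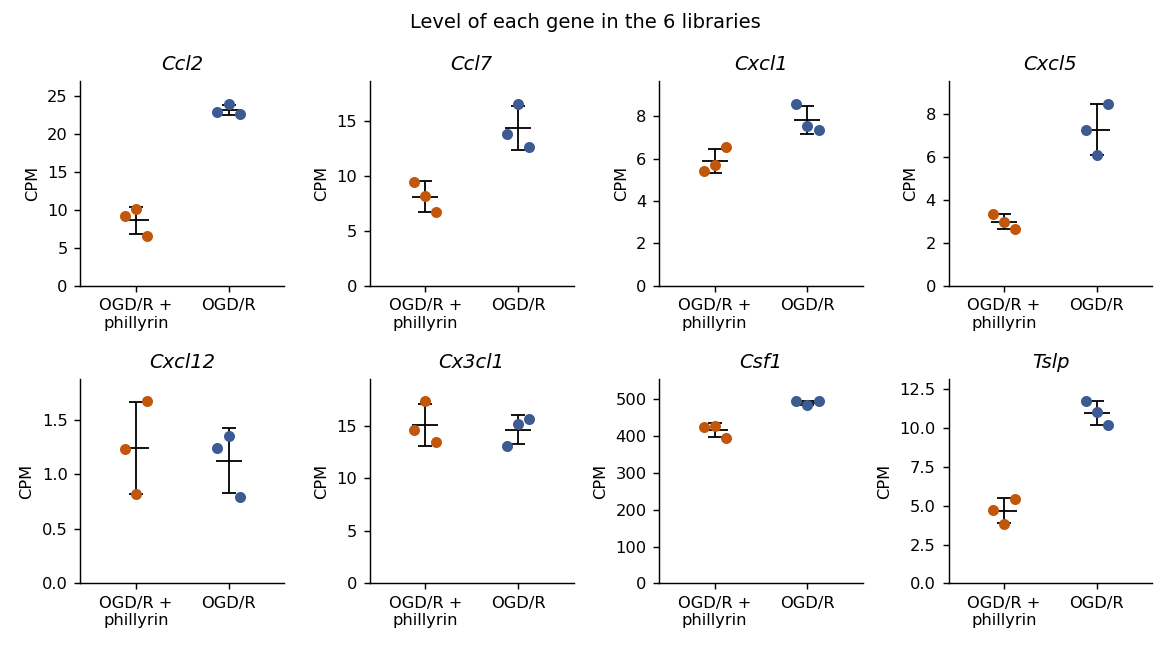
CPM of each gene in every library, with OGD/R + phillyrin at left and OGD/R at right; points are libraries, the horizontal mark is the mean and the bar the SD (n = 3 each), and each panel has its own axis from 0. In 6 panels the groups are separate, and in the Cxcl12 and Cx3cl1 panels they overlap.

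The monocyte attractant Ccl2 (ENSMUSG00000035385, chromosome 11, 81926397 to 81928279, plus strand, GRCm39) was at 9.18, 10.1 and 6.61 CPM with phillyrin, against 22.9, 24.0 and 22.7 CPM with OGD/R alone. The OGD/R libraries lay close together, and every phillyrin library was far below the lowest of them. It averaged 8.62 ± 1.79 CPM with phillyrin and 23.2 ± 0.688 CPM with OGD/R alone (mean ± SD, 3 libraries each), a log2 fold change of -1.40 (SE 0.11). Only 24 tested genes had a lower log2 fold change. Phillyrin replicate 3 was lowest for Ccl2, and without it the log2 fold change was -1.26. On the other strand lies the predicted gene Gm17268, which had 0 counts.

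Ccl7 (ENSMUSG00000035373, chromosome 11, 81936538 to 81938351, plus strand), which binds the same monocyte receptor CCR2 and also CCR1 and CCR3, was at 9.48, 8.22 and 6.68 CPM with phillyrin, against 13.8, 16.6 and 12.7 CPM with OGD/R alone. The groups were apart, but each was more scattered than the OGD/R libraries were for Ccl2. It averaged 8.13 ± 1.40 CPM with phillyrin and 14.4 ± 2.01 CPM with OGD/R alone (mean ± SD, 3 libraries each; log2 fold change -0.82, SE 0.13). The 2 genes are neighbours, and their balance differed: there were 0.969, 1.22 and 0.990 counts of Ccl2 per count of Ccl7 with phillyrin, against 1.66, 1.44 and 1.79 with OGD/R alone.

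Cxcl5 (ENSMUSG00000029371, chromosome 5, 90907219 to 90909483, plus strand), a neutrophil attractant acting through CXCR2, had 57, 65 and 38 counts with phillyrin, against 134, 126 and 161 with OGD/R alone. In CPM these were 3.33, 2.97 and 2.64 with phillyrin, against 7.25, 6.08 and 8.47 with OGD/R alone. No phillyrin library came near the OGD/R range, although the counts are small. The log2 fold change was -1.27 (SE 0.18).

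Cxcl1 (ENSMUSG00000029380, chromosome 5, 91039100 to 91040974, plus strand), the other CXCR2 ligand of the set, was at 5.44, 5.71 and 6.54 CPM with phillyrin, against 8.60, 7.53 and 7.37 CPM with OGD/R alone. The groups did not overlap, and the highest phillyrin library lay close to the lowest OGD/R library. The log2 fold change was -0.41 (SE 0.14). Cxcl1 was not called once phillyrin replicate 1 (log2 fold change -0.36), phillyrin replicate 2 (-0.39) or OGD/R replicate 1 (-0.34) had been left out, nor with DESeq2 (-0.41). There were 0.613, 0.520 and 0.404 counts of Cxcl5 per count of Cxcl1 with phillyrin, against 0.843, 0.808 and 1.15 with OGD/R alone.

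The cytokine gene Tslp (ENSMUSG00000024379, chromosome 18, 32948436 to 32952850, plus strand) was at 4.74, 3.84 and 5.43 CPM with phillyrin, against 11.7, 11.0 and 10.2 CPM with OGD/R alone. The groups were far apart, and the highest phillyrin library was well below the lowest OGD/R library. Tslp averaged 4.67 ± 0.797 CPM with phillyrin and 10.9 ± 0.735 CPM with OGD/R alone (mean ± SD, 3 libraries each), with a log2 fold change of -1.25 (SE 0.14).

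Csf1 (ENSMUSG00000014599, chromosome 3, 107648364 to 107667785, minus strand) was by far the most abundant of the 8 and changed least among those that were lower. It was at 426, 428 and 395 CPM with phillyrin, against 494, 484 and 494 CPM with OGD/R alone. Csf1 averaged 416 ± 18.5 CPM with phillyrin and 491 ± 5.47 CPM with OGD/R alone (mean ± SD, 3 libraries each), a log2 fold change of -0.24 (SE 0.04). This lies inside the range from the 5th to the 95th percentile of all tested genes, -0.50 to 0.37. With 50896 counts over the 6 libraries its relative counting error is the smallest of the 8.

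Cx3cl1 (ENSMUSG00000031778, chromosome 8, 95498637 to 95509055, plus strand), also called fractalkine, was at 14.6, 17.3 and 13.4 CPM with phillyrin, against 13.1, 15.2 and 15.6 CPM with OGD/R alone. The groups overlapped, and the log2 fold change was 0.06 (SE 0.11). Cxcl12 (ENSMUSG00000061353, chromosome 6, 117145496 to 117158328, plus strand) had 21, 18 and 24 counts with phillyrin, against 23, 28 and 15 with OGD/R alone. Its log2 fold change was 0.08 (SE 0.35), so a difference of the size seen for Csf1 or Cxcl1 was not detectable at this depth.

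**Figure D2:**
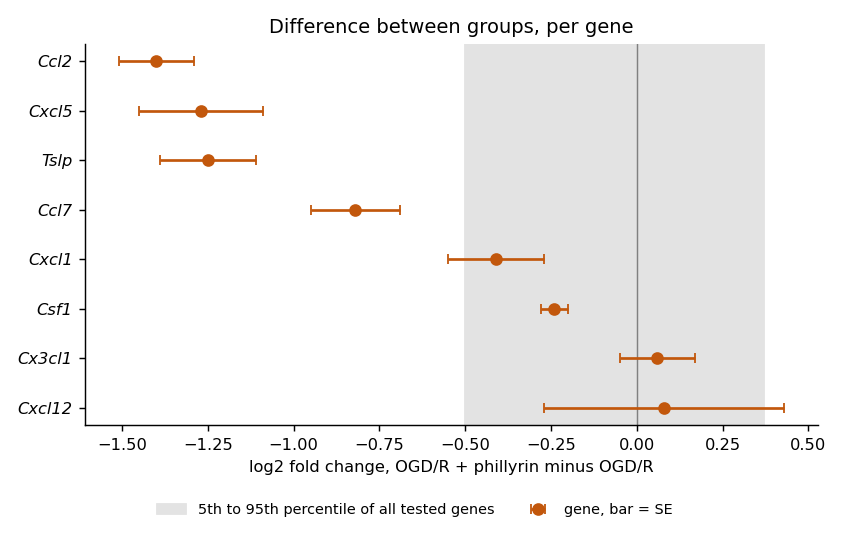
Log2 fold change of each gene, OGD/R + phillyrin minus OGD/R, with its SE as the bar; the grey band runs from the 5th to the 95th percentile of the 11658 tested genes (-0.50 to 0.37). Ccl2, Cxcl5, Tslp and Ccl7 lie below the band, and the other 4 lie within it.

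Between genes, levels were compared as FPKM, which divides the count by gene length and library total. With phillyrin the order was Csf1 at 77.7 ± 4.17, Ccl7 at 10.0 ± 1.80, Ccl2 at 7.46 ± 1.61, Cx3cl1 at 3.78 ± 0.527, Tslp at 3.45 ± 0.563, Cxcl1 at 3.09 ± 0.271, Cxcl5 at 1.58 ± 0.195 and Cxcl12 at 0.149 ± 0.0497 FPKM (mean ± SD, 3 libraries). In this order the ranges of Ccl7 and Ccl2 overlapped, as did those of Cx3cl1 and Tslp and of Tslp and Cxcl1. With OGD/R alone it was Csf1 at 94.3 ± 1.12, Ccl2 at 20.7 ± 0.614, Ccl7 at 18.2 ± 2.55, Tslp at 8.35 ± 0.578, Cxcl1 at 4.24 ± 0.371, Cxcl5 at 3.96 ± 0.649, Cx3cl1 at 3.78 ± 0.339 and Cxcl12 at 0.140 ± 0.0371 FPKM (mean ± SD, 3 libraries). Here Ccl2 and Ccl7 overlapped, as did Cxcl1 and Cxcl5, and Cxcl5 and Cx3cl1. The ranges of Cx3cl1 and Cxcl1, which are not neighbours in either order, also overlapped in both groups.

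Ccl2 and Ccl7 sit in a cluster of CC chemokine genes, and Cxcl5 and Cxcl1 in a cluster of CXC chemokine genes, and the rest of both clusters was close to silent. Within 200 kb of Ccl2 and Ccl7, Ccl8 had 16 counts with phillyrin and 26 with OGD/R alone, Ccl11 had 12 with phillyrin and 15 with OGD/R alone, and Ccl1 and Ccl12 had 0 in all libraries. Between and beside Cxcl5 and Cxcl1, Cxcl2, Cxcl3, Cxcl15 and Pf4 had 0 counts in all libraries, and the platelet chemokine gene Ppbp had 32 counts with phillyrin and 32 with OGD/R alone. The start of Cxcl2, which codes for another ligand of CXCR2, lies 145 kb from that of Cxcl5. Of the 10 other genes around Cxcl5 and Cxcl1, 4 had enough counts for the test and 0 were called in either direction by edgeR, DESeq2 or limma-voom, also 0 at an unadjusted edgeR p under 0.05. Over all tested genes 31.7% were called, and 4 genes are too few to set against this share. Around Cx3cl1, 9 other genes were tested and 1 was called, lower with phillyrin. Around Csf1, 3 were tested and 1 was called, higher with phillyrin.

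**Figure D3:**
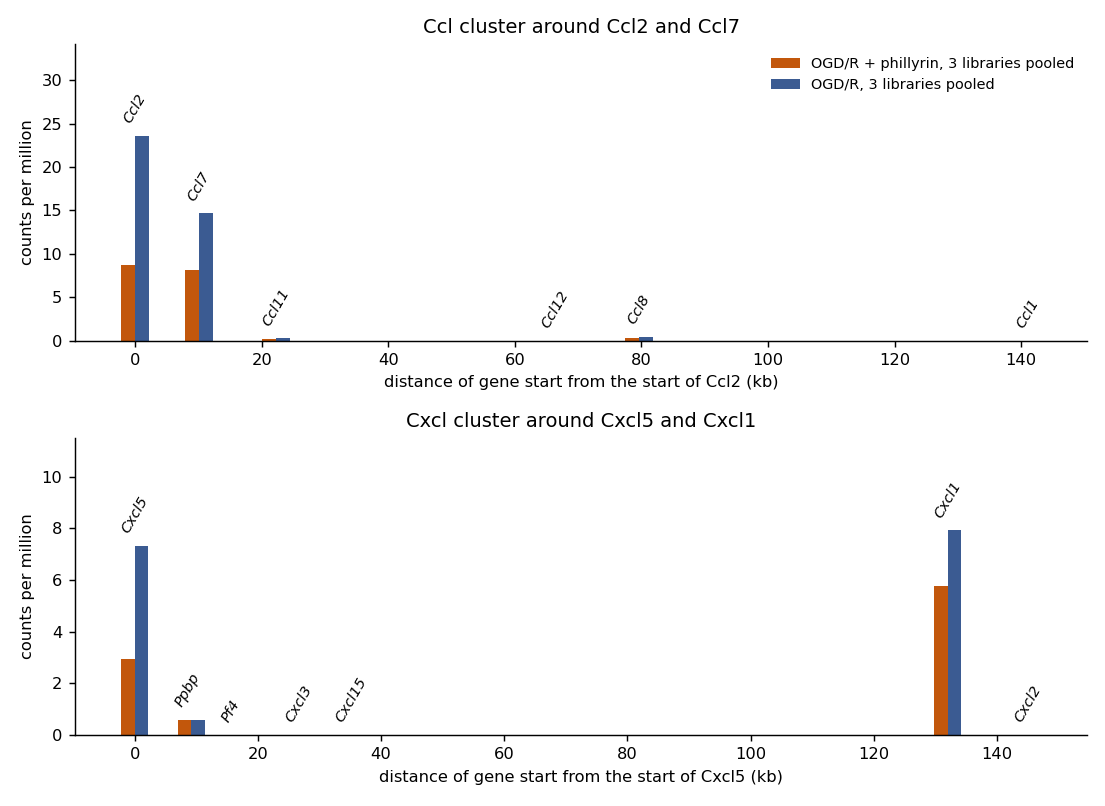
Counts scaled by library size (CPM, axis from 0) of each chemokine gene in the Ccl cluster (top) and the Cxcl cluster (bottom), pooled over the 3 libraries of a group, against the distance in kb of the gene's start from that of Ccl2 or Cxcl5. OGD/R + phillyrin is the left bar and OGD/R the right bar of each pair; only Ccl2 and Ccl7, and Cxcl5 and Cxcl1, reach beyond 1 CPM.

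The sequence before the gene start is shown for 3 of these genes because NF-kB, a factor that drives inflammatory genes, binds kappaB motifs in promoters of this family. The RefSeq promoter table (GRCm38.p6) held Cxcl1, Cxcl12, Cx3cl1 and Csf1, but not Ccl2, Ccl7, Cxcl5 or Tslp. Its windows run from 250 bases before the start to 50 bases after it, and 4.51% of 32851 windows held the kappaB consensus on either strand. It was found in Cxcl1 and Csf1 and not in Cx3cl1 or Cxcl12, and a relation to the group differences was not tested. None of the 4 held the AP-1 letters TGANTCA, which were in 7.81% of windows. The match began 71 bases before the start of Cxcl1 and 154 bases before that of Csf1, and is in capitals. Each sequence is the 250 bases before the start, and its coordinates are of GRCm38.p6, not of the GRCm39 used for the genes above. The Cxcl1 site reads as a match on both strands, overlapping. The same run of letters begins 97 bases before the start of Cxcl2, which had no counts, and 30 bases around it are given last. A match is a run of letters, and binding was not measured.
Cxcl1 (chr5:90890995-90891244, plus strand): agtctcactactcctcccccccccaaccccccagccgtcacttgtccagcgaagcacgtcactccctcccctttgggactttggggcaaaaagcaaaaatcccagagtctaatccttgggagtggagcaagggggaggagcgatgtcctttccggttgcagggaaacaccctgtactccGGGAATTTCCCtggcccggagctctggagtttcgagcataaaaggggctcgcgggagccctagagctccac
Csf1 (chr3:107760470-107760719, minus strand): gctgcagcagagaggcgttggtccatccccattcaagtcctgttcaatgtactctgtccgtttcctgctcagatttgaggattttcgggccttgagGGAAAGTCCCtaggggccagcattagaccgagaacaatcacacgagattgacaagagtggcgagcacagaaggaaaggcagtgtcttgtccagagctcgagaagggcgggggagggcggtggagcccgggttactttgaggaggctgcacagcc
Cx3cl1 (chr8:94771930-94772179, plus strand): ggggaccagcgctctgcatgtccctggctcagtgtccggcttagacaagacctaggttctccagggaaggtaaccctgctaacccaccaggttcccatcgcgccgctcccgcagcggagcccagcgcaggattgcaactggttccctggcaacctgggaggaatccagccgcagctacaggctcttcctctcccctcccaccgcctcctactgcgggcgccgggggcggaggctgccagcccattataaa
Cxcl2 (chr5:90903787-90903816, plus strand): gggaccctgagctcaGGGAATTTCCCtggt

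Short-lived cytokine transcripts often carry AU-rich elements, repeats of ATTTA in the DNA letters of the 3′ untranslated region, to which decay factors bind. In the GENCODE M21 transcript with the longest coding sequence of each gene (GRCm38), all 8 held at least 1 ATTTA, as did 61.7% of 20571 genes with such a region. Cxcl1 had 7 in 592 bases, or 11.8 per kb, against a median over genes of 1.13 per kb. Cxcl5 had 5 in 1111 bases, Csf1 4 in 2111, Cxcl12 4 in 5188, Ccl7 2 in 435, Tslp 2 in 686, Ccl2 1 in 275 and Cx3cl1 1 in 1871. The longer TTATTTATT occurred in Cxcl1 and Cx3cl1 and in 6.93% of genes. Per kb the others ranged between 0.534 in Cx3cl1 and 4.60 in Ccl7, and a relation to the group differences was not tested. For the 4 neutrophil and monocyte attractants, 30 bases of each are given with ATTTA in capitals, 4 copies in Cxcl1 and 1 in each of the others. Each stretch was picked as one with the most ATTTA in its gene, so it does not stand for the whole region.
Cxcl1 (chr5:90892607-90892636, plus strand): tcctATTTATTTAtgtATTTATTTAttcca
Ccl2 (chr11:82037206-82037235, plus strand): aatattaaacttATTTAacttattgatgtt
Ccl7 (chr11:82047255-82047284, plus strand): attaatatttttATTTAattagccatgtac
Cxcl5 (chr5:90760647-90760676, plus strand): tctcacaagtgtATTTAgcaaaaatatttc

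Most other chemokine ligands had few counts or none. Of 33, 20 had no count and 4 could be tested. Ccl9, a chemokine that acts on CCR1 in mice, rose: it was at 10.8, 9.82 and 9.95 CPM with phillyrin, against 5.52, 8.01 and 6.74 CPM with OGD/R alone (0.59 on the log2 scale with SE 0.14, adjusted p = 0.000866 by edgeR). It was the only one of the 4 called, beside 31.7% of all tested genes, and 4 are too few to set against this share. Its direction was opposite to that of Ccl2 and Ccl7, and the median of the 4 was 0.19. None was called lower by edgeR or DESeq2 (0 at an unadjusted edgeR p under 0.05), and 1 was with limma-voom. That one was Mif, a cytokine that binds chemokine receptors, at 223, 232 and 186 CPM with phillyrin, against 231, 243 and 238 CPM with OGD/R alone (edgeR adjusted p = 0.128). Mif was also called lower without phillyrin replicate 2, without a low-count filter and with the replicate block.

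Several receptors of these ligands had few counts or none, while Cxcr4, Ccr1, Ackr3 and Crlf2 passed the filter on low counts. Ccr2 had 0 counts with phillyrin and 2 with OGD/R alone, Cxcr2 had 0 with phillyrin and 1 with OGD/R alone, Ccr3 had 0 with phillyrin and 2 with OGD/R alone, and Cx3cr1 had 2 with phillyrin and 1 with OGD/R alone. Cxcr1, Ackr1 and Il7r had 0 counts in all 6 libraries. Csf1r, the receptor of CSF1, had 1, 6 and 0 counts with phillyrin, against 5, 11 and 1 with OGD/R alone. Of 23 chemokine receptors 5 were tested, of which 2 were called lower and 0 higher (also 0 at an unadjusted edgeR p under 0.05, with DESeq2 and with limma-voom), with a median log2 fold change of -0.29. Over all tested genes 15.6% were called lower and 16.0% higher, and 5 genes are too few to set against these shares.

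Of the receptors of CXCL12, 1 passed the test. Ackr3, an atypical receptor that takes up CXCL12 without G-protein signalling, fell to 97.2, 91.4 and 100 CPM with phillyrin, against 113, 107 and 112 CPM with OGD/R alone (-0.20 on the log2 scale with SE 0.05, adjusted p = 0.00104 by edgeR). Cxcr4, the signalling receptor, was at 1.66 ± 0.258 CPM with phillyrin and 1.99 ± 0.291 CPM with OGD/R alone (mean ± SD, 3 libraries each; edgeR adjusted p = 0.548). Cxcr6, the receptor of CXCL16, fell to 3.22 ± 0.279 CPM with phillyrin, against 5.49 ± 0.352 CPM with OGD/R alone (mean ± SD, 3 libraries each; -0.75 on the log2 scale with SE 0.18, adjusted p = 0.00107 by edgeR). Cxcr6 overlaps Fyco1 on the other strand, and whether the counting told reads of the 2 genes apart is not known. Ccr1 was at 1.15 ± 0.122 CPM with phillyrin and 1.54 ± 0.375 CPM with OGD/R alone (mean ± SD, 3 libraries each; edgeR adjusted p = 0.336).

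A list of genes around CSF1 and TSLP was chosen with earlier results of these data known. Among its tested genes the alarmin Il33 had the lowest log2 fold change. Il33 (ENSMUSG00000024810, chromosome 19, 29902514 to 29938118), which like TSLP is released by damaged barrier tissue, fell to 76.2, 71.1 and 77.4 CPM with phillyrin, against 155, 156 and 156 CPM with OGD/R alone. On the log2 scale this was -1.06 (SE 0.05; adjusted p = 7.67e-20 by edgeR). Of the 20 genes on this list 11 were tested, of which 2 were called lower and 0 higher (also 0 at an unadjusted edgeR p under 0.05, with DESeq2 and with limma-voom), with a median of -0.09. The share called lower over all tested genes was 15.6%, close to 2 of 11. The other one was Stat5a, a transcription factor below cytokine receptors, which fell by 0.39 on the log2 scale (SE 0.11; adjusted p = 0.00462 by edgeR) and overlaps Stat3 on the other strand. Il34, the second ligand of the CSF1 receptor, was at 12.7, 11.1 and 12.7 CPM with phillyrin, against 13.5, 10.9 and 14.6 CPM with OGD/R alone (edgeR adjusted p = 0.564). Crlf2, the specific chain of the TSLP receptor, was at 1.64 ± 0.334 CPM with phillyrin and 1.92 ± 0.784 CPM with OGD/R alone (mean ± SD, 3 libraries each; edgeR adjusted p = 0.607).

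Other inflammatory genes were called in both directions, at about the rate of all genes. Of 39 genes of the NF-kB pathway and its targets 32 were tested, of which 5 were called higher and 5 lower, with a median log2 fold change of -0.05, beside 16.0% higher and 15.6% lower over all tested genes. Il6, a cytokine often induced together with Ccl2, rose to 2.16, 2.56 and 3.34 CPM with phillyrin, against 1.03, 1.25 and 1.05 CPM with OGD/R alone (1.25 on the log2 scale with SE 0.28, adjusted p = 0.000673 by edgeR). Ptgs2, the inducible cyclooxygenase, rose to 593 ± 16.5 CPM with phillyrin, against 408 ± 7.03 CPM with OGD/R alone (mean ± SD, 3 libraries each; edgeR adjusted p = 2.53e-15). Ikbkg, the regulatory subunit of the kinase that activates NF-kB, rose by 0.28 on the log2 scale (SE 0.04; adjusted p = 1.28e-06 by edgeR), but lies opposite the abundant G6pdx.

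Tnfaip3, an NF-kB target that feeds back on the pathway, fell to 56.8 ± 1.03 CPM with phillyrin, against 68.6 ± 5.02 CPM with OGD/R alone (mean ± SD, 3 libraries each; -0.27 on the log2 scale with SE 0.06, adjusted p = 0.000342 by edgeR). Nfkbia, the NF-kB inhibitor, was at 11.7 ± 0.636 CPM with phillyrin and 13.9 ± 2.23 CPM with OGD/R alone (mean ± SD, 3 libraries each; edgeR adjusted p = 0.122), and without OGD/R replicate 2 it passed (edgeR adjusted p = 0.0404). The adhesion molecule gene Vcam1 fell by 0.23 on the log2 scale (SE 0.05; adjusted p = 0.00042 by edgeR). The upstream cytokines were scarce. Tnf had 10, 13 and 22 counts with phillyrin, against 25, 18 and 36 with OGD/R alone (-0.67 on the log2 scale with SE 0.38, adjusted p = 0.191 by edgeR), and it passed without phillyrin replicate 3 (edgeR adjusted p = 0.0357). Il1a had 18 counts with phillyrin and 24 with OGD/R alone, and Il1b 5 with phillyrin and 5 with OGD/R alone.

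**Figure D4:**
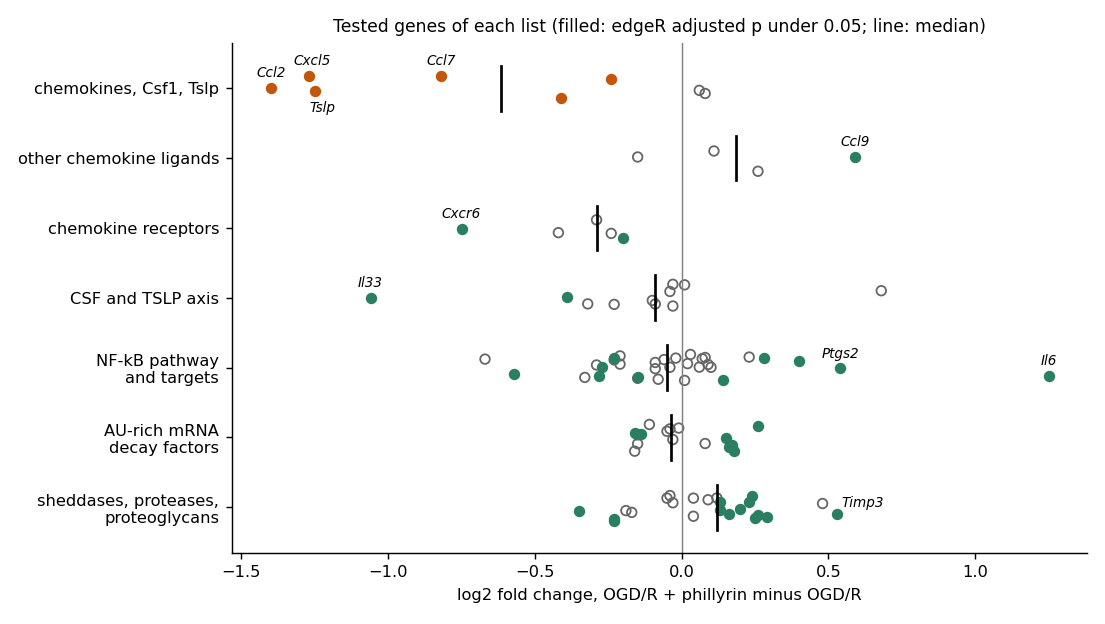
Log2 fold change, OGD/R + phillyrin minus OGD/R, of the tested genes in each list, 1 point a gene; filled points have an edgeR adjusted p under 0.05 and the line is the list's median. Il33 (-1.06) and Il6 (1.25) lie farthest out among the lists below the top row, in opposite directions.

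Of the factors that act on AU-rich transcripts, all 16 were tested, of which 5 were called higher and 2 lower, with a median of -0.03, beside 16.0% higher and 15.6% lower over all tested genes. Zfp36l2, which speeds the decay of such transcripts, fell to 464 ± 10.4 CPM with phillyrin, against 519 ± 11.3 CPM with OGD/R alone (mean ± SD, 3 libraries each; -0.16 on the log2 scale with SE 0.03, adjusted p = 0.000275 by edgeR). Elavl1, which stabilises them, rose by 0.17 on the log2 scale (SE 0.04; adjusted p = 0.00292 by edgeR), and the deadenylase subunits Cnot7 and Cnot1 rose by 0.26 and 0.15 on the same scale (edgeR adjusted p = 0.000877 and 0.00294). Elavl1 and Cnot7 overlap other genes on the other strand. Scaled by library size only, 5 of the 16 were called lower.

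Of 26 genes for sheddases, chemokine-cleaving proteases and the heparan sulfate proteoglycans that hold chemokines at the cell surface, 23 were tested, of which 10 were called higher and 3 lower, with a median log2 fold change of 0.12, beside 16.0% higher and 15.6% lower over all tested genes. Timp3, an inhibitor of the sheddase ADAM17, rose to 923 ± 19.0 CPM with phillyrin, against 640.3 ± 9.82 CPM with OGD/R alone (mean ± SD, 3 libraries each; 0.53 on the log2 scale with SE 0.03, adjusted p = 1.62e-15 by edgeR). The core protein gene Sdc2 and the heparan sulfate polymerase gene Ext1 rose by 0.26 (SE 0.04; adjusted p = 2.19e-07 by edgeR) and 0.23 (SE 0.04; adjusted p = 3.48e-06, edgeR) on the log2 scale. Hspg2, the basement membrane proteoglycan perlecan, fell by 0.35 on the log2 scale (SE 0.04; adjusted p = 5.94e-09 by edgeR). Adam17, which sheds CX3CL1 and CSF1, was at 108, 104 and 109 CPM with phillyrin, against 108, 115 and 107 CPM with OGD/R alone (edgeR adjusted p = 0.57). Adam10, which also sheds CX3CL1, rose to 222, 231 and 230.3 CPM with phillyrin, against 207, 206 and 211 CPM with OGD/R alone (0.13 on the log2 scale with SE 0.04, adjusted p = 0.00593 by edgeR). The membrane metalloprotease gene Mmp14 rose by 0.24 on that scale (SE 0.04; adjusted p = 7.01e-06 by edgeR).

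Summed marker levels of some other cell types did not overlap between the groups. For single genes this held for 43.1% of all tested genes, in either direction. Over all tested genes 31.7% were called in either direction and 15.6% lower. The tested markers of each list are too few to set against these shares, and a few abundant genes can carry a sum. The 8 fibroblast markers summed to between 1797 and 1950 CPM with phillyrin, against 2281 to 2322 CPM with OGD/R alone. The 5 tested were Col1a1, Col1a2, Col3a1, Pdgfra and Dcn, of which 3 were called lower, while Tcf21, Lum and Thy1 were at or near 0 counts. The 10 skeletal muscle markers summed to 517 to 549 CPM with phillyrin, against 580 to 596 CPM with OGD/R alone (1 higher and 3 lower of 7 tested), and the 16 cardiac markers to 857 to 907 CPM with phillyrin, against 818 to 836 CPM with OGD/R alone (1 higher of 5 tested). The 16 monocyte, macrophage and neutrophil markers summed to 19.1 to 21.1 CPM with phillyrin, against 21.0 to 22.2 CPM with OGD/R alone, mostly Cd14 and Cd68, the 2 tested, of which 0 were called. Endothelial markers, 7 of which 1 was tested and 0 called, summed to at most 1.35 CPM with phillyrin and 1.11 CPM with OGD/R alone, and the lymphocyte list held 1 count in all. The part of the fibroblast and muscle differences in those of the chemokines was not tested.

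The transcripts whose pattern over the 6 libraries lay nearest to that of Ccl2 were found among 9923 tested genes whose mean log2 CPM was 2 or more, by the root mean square difference of centred log2 CPM. They were Prl2c3 at 0.199, Mertk at 0.200, Daam2 at 0.202, Ngfr at 0.213 and Cxcl5 at 0.226. Tslp came at place 30 and Ccl7 at place 32. Likeness by this measure includes the difference between the groups, on which the members were chosen. The places of Cxcl5, Tslp and Ccl7 therefore repeat that choice and support nothing. Prl2c3, a proliferin gene with near-identical copies whose reads may be shared, was at 38.9 ± 0.983 CPM with phillyrin and 91.3 ± 5.37 CPM with OGD/R alone, and Mertk, a receptor for dying cells, at 12.8 ± 1.77 CPM with phillyrin and 31.5 ± 1.20 CPM with OGD/R alone (mean ± SD, 3 libraries each). Nearest to Csf1 were Kctd10, Fbxo21, Pam, Inf2 and Prdx2, at 0.013 to 0.021, where Cxcl5 came at place 9892 and Ccl2 at place 9911. Values were not scaled for the size of a difference. Ccl2 and Cxcl5 were lower with phillyrin, as Csf1 was, but by more. Cx3cl1, whose groups overlapped, came nearer to Csf1, at place 6493. A late place is therefore no sign of an opposite pattern.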

How the data were processed

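Per the labels' protocols, poly(A) RNA was sequenced as paired reads of 150 bases. The submitters' processing notes list Trimmomatic 0.39, HISAT2 2.2.1, featureCounts 2.0.3, DESeq2 1.34.0 and the build GRCm39, with no settings. Whether strand was used in counting is not given in the sources used here. Per the file headers, the deposited table gives, for each gene, the counts and the FPKM of every library. Columns were matched to samples by title, since the description in the labels gives the same column name for all 3 phillyrin samples, so which phillyrin library bears which replicate number rests on the titles. The FPKM values deposited by the authors equalled count over gene length and library total within a relative difference of 2.43e-07. Rows without a symbol took at most 0.00743% of counts.

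Counts were filtered with filterByExpr, normalized by TMM, then tested by quasi-likelihood in edgeR (edgeR 4.0.16, limma 3.58.1, R 4.3.3), two-sided, with Benjamini-Hochberg adjustment over 11658 genes at 0.05. Log2 fold changes are OGD/R + phillyrin minus OGD/R. CPM used TMM-scaled totals, log2 CPM a prior count of 2. The labels name no separate cultures for the 3 libraries of a group, so the spread behind each p-value is that between libraries and may be technical only. An exact permutation test of 3 against 3 cannot give a two-sided p below 0.1. The script was first run on simulated counts in which 200 of 11658 genes were changed. It recovered 59.7% of the 1.25-fold and 95.4% of the 2-fold changes, and 9 of 160 calls were false. Small differences can therefore be missed. In the data 31.7% of tested genes were called, so the simulated setting differed.

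The members and gene lists were chosen with earlier results of these data known. Named were the members, their receptors, 6 inflammatory genes, up to 4 called genes with the smallest p from each of 6 lists, chemokine genes within 200 kb of a member, and the 5 nearest profiles to Ccl2 and Csf1. Other genes were named after their values were seen. Alternatives were limma-voom, DESeq2 1.42.0, RLE normalization, scaling by library size only, other low-count filters, each library left out and the replicate number as a block.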

Additional observations from a re-analysis of the deposited data

How the results depend on the processing

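The members were chosen for this difference, so their values over 13 alternatives are a description and no sign of stability: the log2 fold change lay at -1.54 to -1.26 for Ccl2, -0.92 to -0.70 for Ccl7, -1.39 to -1.15 for Cxcl5, -0.28 to -0.20 for Csf1 and -1.36 to -1.11 for Tslp. The number of members called lower was 5 with DESeq2 and 5 or 6 with a library left out, the difference being Cxcl1 (log2 fold change -0.48 to -0.34). Cx3cl1 and Cxcl12 changed sign between alternatives (-0.06 to 0.13 and -0.16 to 0.35). Called were 1871 genes higher and 1823 lower, but 1313 and 2455 with library size only, and 1434 to 1899 and 1412 to 1668 with a library left out. Other chemokine ligands called lower numbered 1 (Mif) with limma-voom, 1 without a low-count filter, and 0 to 1 with a library left out. AU-rich decay factors called lower numbered 5 with library size only. The causes were not tested. With the replicate number as a block, 1867 genes were higher and 1842 lower, and 1 other chemokine ligand was lower. Same-numbered libraries deviated together with a correlation of at most 0.00561, so no strong shared deviation was seen, although each library correlated best with its own number. The labels give no pairing, and these correlations cannot exclude one. Depth limits Cxcl12 most, with 129 counts in all.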

Other observations

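Among the epithelial markers looked up beside Tslp, 2 of 7 were tested and they went in opposite directions. The keratin gene Krt14 rose and Krt19 fell, with log2 fold changes of 0.75 (SE 0.09, edgeR adjusted p = 7.53e-09) and -0.60 (SE 0.07, edgeR adjusted p = 2.23e-08). Epcam and Krt5 had 0 counts in all libraries. Pdgfra, a growth factor receptor of mesenchymal cells, fell to 12.3, 11.1 and 11.1 CPM with phillyrin, against 19.6, 18.5 and 19.7 CPM with OGD/R alone (log2 fold change -0.74, SE 0.10, edgeR adjusted p = 1.51e-07). These genes were chosen after their values were seen.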
